A study of Sminthopsis crassicaudata with 9 samples.

Results

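The regions described here are strong H3K4me3 peaks that lay far from annotated genes in the face of newborn fat-tailed dunnarts (Sminthopsis crassicaudata, a small carnivorous marsupial). They were selected on measured values. A peak of replicate 1 was taken where its q-value was under 0.05, its fold enrichment over input was at least 20, it shared at least 50% of either length with a replicate 2 peak of fold enrichment at least 20, and its edges were over 3 kb from every annotated transcription start site (TSS). This rule found 1935 regions, 17.6% of the 10971 strong peaks shared by both replicates, out of 156428 H3K4me3 peaks listed for replicate 1. Of these 1935, 1073 lay outside gene bodies and 862 shared at least 1 base with the span of a gene model. They are termed strong far peaks, and the other 9036 strong peaks, within 3 kb of a TSS, are termed TSS peaks.

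Chromatin was prepared from craniofacial tissue of pouch young under 24 hours old, in 2 pools of 26 and 27 heads, and each pool gave an H3K4me3, an H3K27ac and an input library. The head counts are those of the sample labels, and the total given in the study's methods is not the same. RNA was sequenced from facial prominences of young on the day of birth in 3 libraries, each a pool of 2 young. All young were untreated, so no group was set against another, and the values of both pools or all 3 libraries are given side by side. The RNA libraries, named FP1, FP2 and FP3, held between 16096971 and 17419099 counts over 21703 gene models.

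H3K4me3 is laid down where transcription begins, most strongly at CpG-rich promoters, and H3K27ac marks active promoters and active enhancers. Enhancers usually carry little H3K4me3, so a strong H3K4me3 peak is usually taken as the mark of a promoter. A promoter can appear to be far from any gene where a gene model lacks its first exon, where a gene has a second promoter, or where a gene or a long non-coding RNA is not in the annotation. The gene models used here were those of the Tasmanian devil, placed on the dunnart scaffolds by similarity, so a start in this annotation is a start of a devil model.

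Markers of several facial cell types were present in the RNA. The facial mesenchyme factor TWIST1 had 359, 285 and 217 TPM (counts per kilobase of exon, scaled to the same sum in each library) in FP1, FP2 and FP3. The epithelial keratin KRT8 had 290.0, 294 and 282 TPM and the fast muscle light chain MYL1 had 7118, 6771 and 8033 TPM. The intestinal factor CDX2 was at 0 in all 3 libraries. NKX2-5, known as a heart factor, was at 70.3, 73.9 and 163 TPM.

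Strong far peaks spanned a wide range of H3K4me3. Their fold enrichment, which the rule used and which is given only as a description, had a median of 35.9 in pool 1 and 42.6 in pool 2, and reached 118 in pool 1 and 137 in pool 2. TSS peaks had medians of 50.3 in pool 1 and 59.0 in pool 2. Pool 2 gave the higher value at 1507 of the 1935 strong far peaks (77.9%) and at 6877 of the 9036 TSS peaks (76.1%), so the offset between pools was shared by both classes. Across the 1935 regions, which share their libraries, log10 fold enrichment correlated between pools with r = 0.86. The summits of the pools lay a median of 40 bp apart. Strong far peaks were a median of 2425 bp long, TSS peaks 2701 bp, and weaker reproducible H3K4me3 peaks over 3 kb from a TSS, of which there were 88554, 700 bp.

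The region with the lowest value in either pool had a fold enrichment of 20.04 in pool 1 and 31.9 in pool 2. The nearest region left out by that threshold had 22.3 in pool 1 and 19.96 in pool 2, and 968 far peaks reached 20 in 1 pool but not in the other. The closest strong far peak lay 3001 bp from a TSS, and the most distant strong peak left out lay 2991 bp from one.

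The median distance from a strong far peak to the nearest TSS was 21.2 kb (quartiles 9.05 and 53.4 kb), against 46.4 kb for weaker far peaks. Within 5 kb lay 185 strong far peaks (9.57%), against 4.55% of weaker far peaks. A further 351 (18.1%) lay between 5 and 10 kb, and 253 lay over 100 kb from any TSS. Outside and inside regions were spread in nearly the same way, with medians of 21.6 and 20.8 kb. One region lay on a scaffold with no gene model. Of the 1072 outside regions with a TSS on their scaffold, 795 (74.2%, Wilson 95% interval 71.5 to 76.7%) were upstream of the nearest one, against 26117 of 44570 weaker far peaks outside gene bodies (58.6%). A peak outside gene bodies can lie downstream of its nearest TSS only beyond the span of that gene. The classes were not matched for distance, and the part of distance in these shares was not tested. Intervals here cover counting error only. Only 59 outside regions (5.50%) lay within 3 kb of the 3′ end of a gene.

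**Figure D1:**
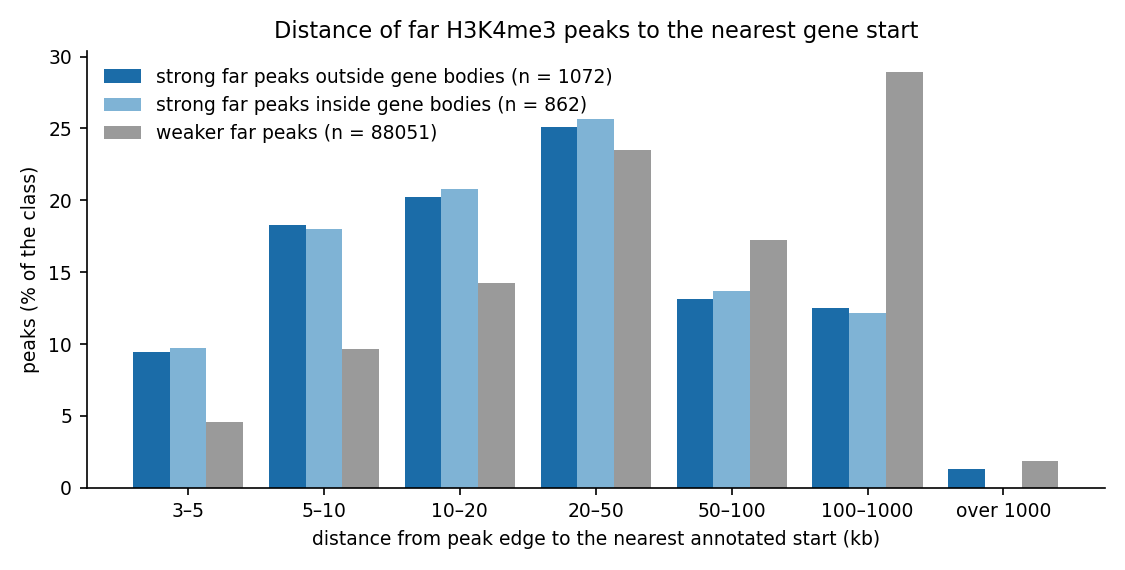
Share of peaks (%) by distance from the peak edge to the nearest annotated start (kb), for strong far peaks outside gene bodies, strong far peaks inside gene bodies and weaker far peaks. Bars are shares of each class, and the 1 outside region and 503 weaker peaks on scaffolds without a gene model are left out. The bins differ in width, so bar heights do not show how densely peaks lie along the distance. The bin from 20 to 50 kb held 25.3% of strong far peaks, and 29.0% of weaker far peaks lay between 100 and 1000 kb.

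The strongest region of all lay outside gene bodies, 4.67 kb upstream of GRIN2D, which encodes a subunit of the NMDA glutamate receptor. It covered scaffold00210:388929-393487 of the study's assembly, with an H3K4me3 fold enrichment of 117 in pool 1 and 124 in pool 2 and an H3K27ac fold enrichment of 91.1 and 82.2. The start of the GRIN2D model itself carried a peak of only 6.87. The next was 43.8 kb downstream of the start of HES6, a helix-loop-helix factor of the Hes family, at scaffold00002:174707035-174710757, with 80.7 and 137 in pools 1 and 2. That region differed between the pools more than any other among the 10 strongest outside gene bodies, and at HES6 the annotated start was also strongly marked, at 64.0.

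Of the other 8, 5 had as their nearest start one with no H3K4me3 peak within 3 kb. One was 39.9 kb upstream of GIGYF2, a factor of translational repression (118 and 97.5 in pools 1 and 2). Another was 125.6 kb upstream of FBXW7, the substrate receptor of a ubiquitin ligase (83.8 and 126). A further region was 3.30 kb upstream of ARPC2, a core subunit of the actin-nucleating Arp2/3 complex (87.8 and 119). These genes had no marked start of their own but were transcribed, GIGYF2 at 21.9, 23.8 and 19.0 TPM, FBXW7 at 10.0, 15.6 and 12.8 TPM and ARPC2 at 285, 354 and 349 TPM in FP1, FP2 and FP3. The remaining unmarked starts were those of LOC116422143 and LOC111719705, with at most 0.0098 TPM in any library. Their regions lay 12.6 and 468 kb downstream of these starts. At MAPKAPK5, a stress-activated protein kinase, and at LRRFIP2 the regions lay 14.1 and 27.4 kb upstream of starts with peaks of 4.27 and 4.53, and at DENND6B, of the DENN domain family, the region was 25.4 kb downstream of a start at 85.3.

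Inside gene bodies the strongest region lay at scaffold00092:1050896-1052215, 17.3 kb into SAR1B, a GTPase of COPII vesicle coats, with H3K4me3 of 98.7 and 109 in pools 1 and 2. RBPJ, the DNA-binding partner of Notch, held a region 91.5 kb from its annotated start (scaffold00001:59048419-59054475), with 92.1 and 115 in pools 1 and 2, while its annotated start had a peak of 4.05. RXRA, the retinoid X receptor alpha, was alike in this, with 97.8 and 103 in pools 1 and 2 at a region 138 kb into the gene (scaffold00002:340698618-340705651) and 4.13 at the start. Among the 10 strongest inside regions, the host start had no H3K4me3 peak at SAR1B, ZRANB1, CHD2 and TIMM44, and a peak of at least 20 at SBNO1, CNBP and ZNF865. CHD2, a chromatin remodeler, had 16.0, 20.6 and 17.5 TPM, and TIMM44, a part of the mitochondrial import motor, had 34.5, 39.1 and 32.4 TPM in FP1, FP2 and FP3.

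**Figure D2:**
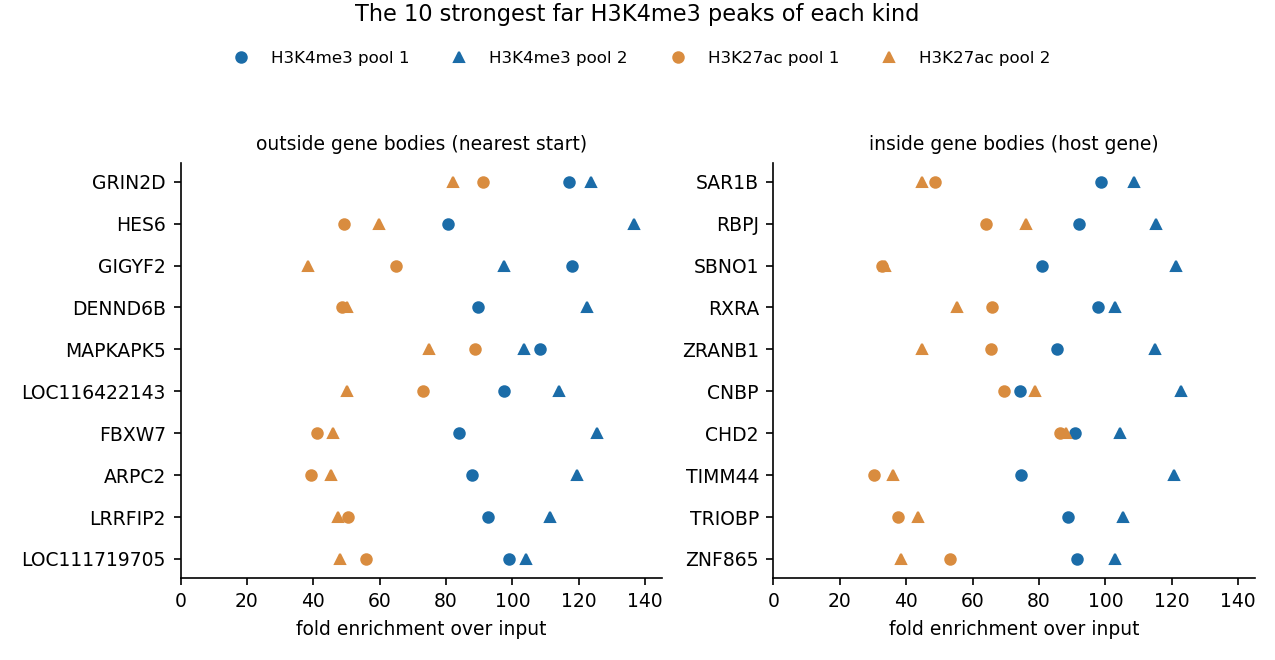
Fold enrichment over input (x axis) of H3K4me3 and H3K27ac in each pool at the 10 strongest far peaks outside gene bodies, named by the gene with the nearest start, and the 10 strongest inside, named by the host gene. Points are single pools; H3K4me3 lay between 74.4 and 137 at all 20, and H3K27ac between 30.3 and 91.1.

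All 1935 strong far peaks overlapped a reproducible H3K27ac peak, as did 9035 of the 9036 TSS peaks. Of the 88554 weaker far peaks 67748 did (76.5%). An overlap of 1 base was enough here, and the classes were not matched for peak length. The lowest H3K27ac fold enrichment at a strong far peak was 5.47 in pool 1 and 4.04 in pool 2. The region with the lowest value in pool 2 lay 21.5 kb upstream of LOC100922132, with 9.42 and 4.04 in pools 1 and 2, and the next but one lay 29.2 kb from the start of WNT8B, a Wnt ligand, with 7.70 and 4.48. H3K27ac reached at least 20 in both pools at 1208 strong far peaks (62.4%), against 6576 TSS peaks (72.8%). It was above H3K4me3 in both pools at 220 strong far peaks (11.4%), against 385 TSS peaks (4.26%) and 42385 weaker far peaks (47.9%). The extreme was a region 16.9 kb from the start of TEX44, where H3K27ac was 111 and 62.2 and H3K4me3 30.8 and 21.6 in pools 1 and 2. The shares for H3K27ac of at least 20 and for H3K27ac above H3K4me3 were not taken at like H3K4me3. The classes differed in H3K4me3, which the rule used. The 2 marks were measured in separate libraries, and the median ratio of H3K27ac to H3K4me3 at strong far peaks was 0.729 in pool 1 and 0.543 in pool 2.

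The median H3K27ac fold enrichment was 29.4 in pool 1 and 25.1 in pool 2 at strong far peaks, against 35.1 and 29.4 at TSS peaks, so it was lower by 16.4% in pool 1 and by 14.5% in pool 2. This difference was not seen among peaks of like H3K4me3. Where the mean H3K4me3 fold enrichment of both pools was over 60, the medians were 45.7 in pool 1 and 38.4 in pool 2 at 390 strong far peaks, against 45.6 and 37.9 at 3800 TSS peaks. Between 40 and 60 they were 31.7 and 27.5 at strong far peaks, against 32.3 and 27.3 at TSS peaks. In the lowest band, 20 to 30, strong far peaks had the higher medians, 18.7 and 17.0, against 16.0 and 14.4 at TSS peaks. The difference of these medians was 2.74 in pool 1 and 2.68 in pool 2, more than the spread between those 2 values but within the quartiles of each class. Regions outside and inside gene bodies had close medians, 29.2 and 29.6 in pool 1 and 25.0 and 25.3 in pool 2. No test was run over peaks, since peaks of 1 pool are not replicates.

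**Figure D3:**
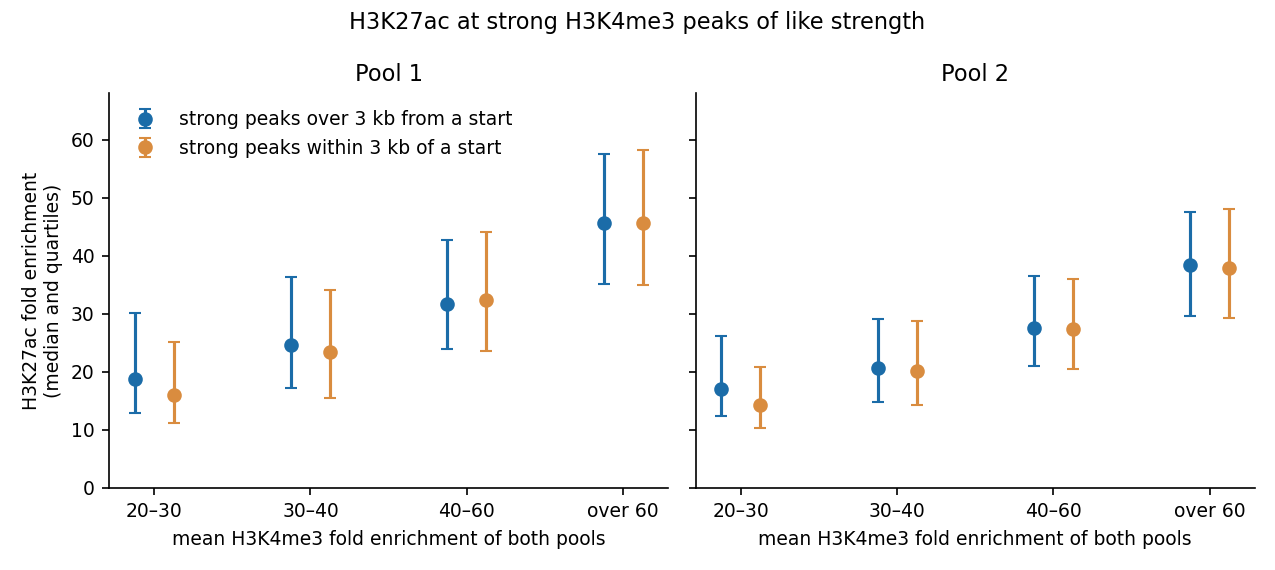
H3K27ac fold enrichment (y axis, median with lower and upper quartile) in pool 1 and pool 2 at strong far peaks and at TSS peaks, in bands of mean H3K4me3 fold enrichment (x axis). The medians of both classes differed by at most 1.19 in every band over 30, and strong far peaks were higher in the band 20 to 30.

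The gene nearest to a strong far peak was expressed, that is over 1 TPM in all 3 libraries, at 1388 of 1934 regions (71.8%, 95% interval 69.7 to 73.7%), against 89.7% of TSS peaks, 57.9% of weaker far peaks and 56.5% of all gene models with counts. These RNA values are of whole tissue, so fewer cells of a type and less RNA per cell cannot be told apart. The share was 79.7% for regions of mean H3K4me3 over 60 and 63.1% for those between 20 and 30, and for TSS peaks it was 96.3% and 66.3% in the same bands. It was 78.9% where the TSS lay within 5 kb and 57.7% between 100 and 1000 kb.

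At 616 of 1934 regions (31.9%) the nearest annotated start had no reproducible H3K4me3 peak of any strength within 3 kb, against 21.9% for weaker far peaks. Over all gene models 28.4% of starts had no such peak, and over the 12250 expressed ones 9.31%. Expressed genes with an unmarked start were the nearest gene of 374 strong far peaks (19.3%), against 4.05% of weaker far peaks. The median distance to such a start was 16.0 kb for strong far peaks and 82.9 kb for weaker ones. Seen from the genes, 367 of 1141 expressed genes with an unmarked start (32.2%, 95% interval 29.5 to 34.9%) were the nearest gene or the host of a strong far peak, against 1073 of 11109 expressed genes with a marked start (9.66%). The rule left out strong peaks within 3 kb of a start, and unmarked starts are defined by the same mark and distance. The shares for marked and unmarked starts are therefore given only as a description. Genes that were not expressed had lower shares, 201 of 5023 with an unmarked start (4.00%) and 300 of 4419 with a marked one (6.79%). The median span was 32.5 kb for expressed genes with an unmarked start and 25.4 kb for those with a marked start, and 5.93 and 7.54 kb for the other genes with an unmarked and a marked start. The part of span in these shares was not tested.

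For outside regions the values differed with the side of the gene. Upstream of an unmarked start the nearest gene was expressed at 187 of 287 regions (65.2%), with median TPM of 5.84, 8.30 and 5.40 in FP1, FP2 and FP3. Downstream of an unmarked start it was expressed at 14 of 75 (18.7%), with medians of at most 0.0098 TPM. Where the start was marked, the shares were 79.1% upstream (402 of 508) and 64.4% downstream (130 of 202). These are shares of regions, and regions with the same nearest gene were each counted. LOC111719705, PARP9 and HELZ were the nearest genes of 11, 13 and 10 outside regions. For unmarked starts, the FP1 median downstream equaled the value of LOC111719705, and the FP1 median upstream that of HELZ.

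Of the genes with an unmarked start, those with the most RNA are given first for outside regions. ITGB1, the integrin beta-1 chain, had 275, 375 and 354 TPM in FP1, FP2 and FP3, and a region 25.3 kb upstream of its annotated start (scaffold00046:11284784-11286540) had H3K4me3 of 69.0 and 72.7 and H3K27ac of 87.4 and 74.8 in pools 1 and 2. EIF3E, a subunit of translation initiation factor eIF3, had 250.02, 298 and 317 TPM, and a region 5.93 kb upstream (scaffold00003:4011993-4014449) had H3K4me3 of 63.8 and 73.0. IDH2, the mitochondrial isocitrate dehydrogenase, had 232, 234 and 176 TPM, and its region 8.02 kb upstream (scaffold00014:3033024-3035818) had 64.0 and 46.0 in pools 1 and 2. At these 3 genes, as at ARPC2, the strong far peak lay upstream of the model. ANKRD1, a muscle ankyrin repeat protein, had 242, 257 and 266 TPM, but its region lay 224 kb upstream.

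Inside genes, the beta-tubulin TUBB had 746, 817 and 648 TPM in FP1, FP2 and FP3 and no peak at its annotated start, while a region 3.52 kb into the gene (scaffold00115:1142337-1146696) had H3K4me3 of 51.7 and 47.7. PRDX3, a mitochondrial peroxiredoxin, had 90.2, 108 and 97.0 TPM and a region 3.88 kb into the gene with 52.5 and 68.9. ATP5MPL, a small subunit of ATP synthase, had 228, 190.0 and 189.9 TPM and a region at 10.3 kb with 46.6 and 59.4. The epithelial factor KLF5 had the largest SD relative to its mean of these 5 genes, with 101, 186 and 213 TPM, and its region lay 54.9 kb into the gene, with 71.0 and 53.9. ZDHHC1, of the palmitoyltransferase family, had 86.8, 108 and 119 TPM and a weaker region at 45.8 kb, with 23.7 and 24.9.

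**Figure D4:**
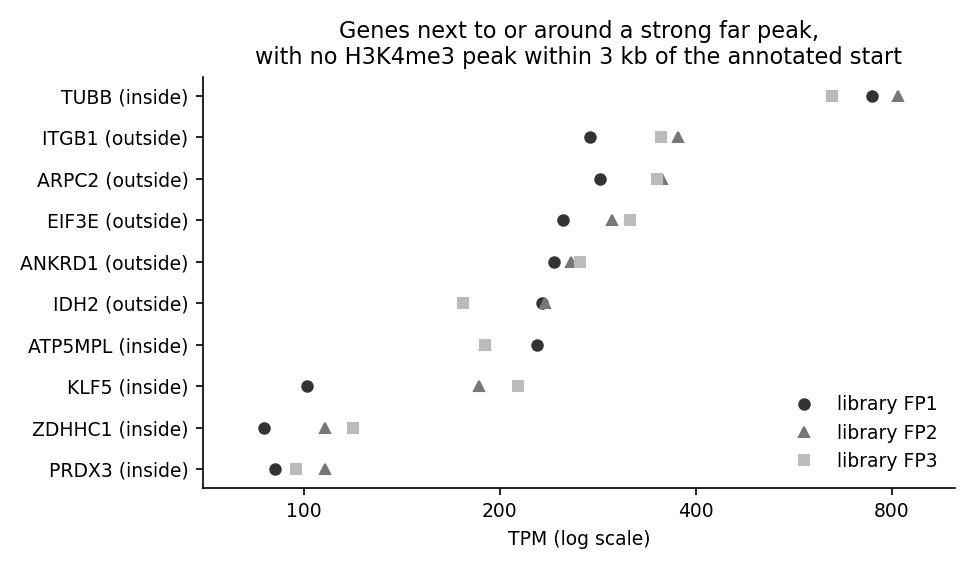
TPM (x axis, log scale) in the libraries FP1, FP2 and FP3 of the 5 genes of highest mean TPM next to a strong far peak outside gene bodies and the 5 that hold one inside, among genes with a symbol and no H3K4me3 peak within 3 kb of the start. Each point is a library; TUBB was highest, between 648 and 817 TPM, and the lowest value was 86.8 TPM at ZDHHC1.

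The 862 inside regions lay in genes with a median span of 78.5 kb, and the host gene was expressed at 740 of the 857 with counts (86.3%). The share was 86.1% where the host start was unmarked (198 of 230) and 86.4% where it was marked (542 of 627). For weaker far peaks inside genes it was 47.9% with an unmarked and 82.3% with a marked host start. The host start was unmarked at 231 inside regions (26.8%), against 8.65% for weaker far peaks inside genes. Inside regions lay at a median of 45.3% of the way along the gene, against 61.3% for weaker ones, with 19.0% in the first 20% of the gene and 18.8% in the last 20%, against 11.7% and 29.2%.

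Inside regions were often at exons. The summit lay in an annotated exon at 318 of 862 regions (36.9%), against 19.0% of weaker far peaks inside genes. It lay within 500 bp of the 5′ edge of an exon at 511 (59.3%), against 29.99%. With overlapping exons joined, the nearest exon was the 2nd of the gene at 244 regions (28.3%) and the 3rd at 168 (19.5%), against 15.02% and 11.9% of weaker peaks. If the 5′ edge of every exon were counted as a possible start, 125 inside regions (14.5%) would remain over 3 kb from one. For weaker far peaks inside genes the share was 41.1% (17877 of 43481). This distance is taken from the peak edge, and the classes were not matched for peak length. The count table joins all transcripts of a gene, so an exon that begins an alternative transcript cannot be told apart from an inner exon.

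Most regions stood alone. Another strong H3K4me3 peak lay within 1 kb of 31 (1.60%) and within 10 kb of 317 (16.4%), and the median distance to the next was 42.1 kb. The 1934 regions had 1718 different nearest genes, of which 1565 had 1 region and 9 had over 3. The 9 included long stretches without gene models. On scaffold00095, 20 regions lay in a gap of 2002 kb between LOC111719705 and EIF3J, with mean H3K4me3 between 27.4 and 102 and H3K27ac between 8.09 and 71.6 in pool 1 and between 13.3 and 80.03 in pool 2. The model of EIF3J, another subunit of eIF3, had 0.117, 0.284 and 0 TPM in FP1, FP2 and FP3. Whether this placed model holds the whole gene was not tested. PARP9, an ADP-ribosyltransferase family member, was the nearest gene of 13 regions on scaffold00030, between 7.57 and 3136 kb away, and HELZ, a helicase, of 10 regions between 152 and 1275 kb away. LOC105749654 was the nearest of 7.

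The order of genes in RefSeq's annotation of another dunnart assembly (ASM4859323v1) was used to ask whether genes not among the models here lie between the same neighbours. This comparison was added after the values had been seen. Of the outside regions 1020 fell into 903 gaps between gene models, while 53 lay at the end of a scaffold and were left out. In 432 of these both flanking genes were found under 1 symbol in RefSeq with at most 10 genes between them. In 172 of the 432 (39.8%) RefSeq had at least 1 gene between the flanks that was not a symbol of the table, in 37 (8.56%) a protein-coding gene and in 112 (25.9%) a long non-coding RNA. Of 8513 gaps without a strong far peak 1672 (19.6%) had any such gene, 188 (2.208%) a coding gene and 1006 (11.8%) a long non-coding RNA, but gap lengths differed, with a median of 65.6 kb for gaps with a strong far peak and 16.0 kb for gaps without. Among gaps of 20 to 50 kb the coding shares were 10.9% with a strong far peak (14 of 128) and 1.95% without (33 of 1688), and among gaps of 50 to 100 kb 10.8% (10 of 93) and 3.17% (32 of 1010). Among gaps of 100 to 200 kb they were 3.57% (3 of 84) and 4.35% (27 of 620), the opposite order, and over 200 kb 7.59% (6 of 79) and 6.27% (32 of 510). The share with any gene was 43.0% with a strong far peak and 28.8% without among gaps of 50 to 100 kb, but 40.5% and 41.8% among those of 100 to 200 kb and 58.2% and 59.6% among those over 200 kb. RefSeq had a coding gene with a symbol in 18 gaps with a strong far peak (4.17%) and in 58 without (0.681%). Over 200 kb it had one in 0 of 79 and in 4 of 510 (0.784%).

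The strongest region lay in a gap with a coding gene of RefSeq. RefSeq has KDELR1, a receptor that returns proteins to the endoplasmic reticulum, between GRIN2D and SYNGR4, and the region of 117 and 124 lay in that gap of 11.5 kb. A region at scaffold00168:2049143-2054952 had H3K4me3 of 48.5 and 73.4 in pools 1 and 2. It lay in the gap between CXHXorf65 and SNX12, where RefSeq has FOXO4, a forkhead factor. One at scaffold00017:8292957-8296600 lay in the gap between TMEM184B and PLA2G6, where RefSeq has MAFF, a small Maf factor, with 66.9 and 51.7. The gap between IGF2 and TH, where RefSeq has INS, the insulin gene, had a region of 26.6 and 29.4. The gap between TMEM151A and RIN1, where RefSeq has CD248, a surface protein of mesenchymal cells, had a region of 23.1 and 48.0. Of the 468 regions in gaps that could be compared, 42 lay with a coding gene, 114 with a long non-coding RNA and no coding gene, 276 with no RefSeq gene, and the others with RefSeq genes of other types.

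**Figure D5:**
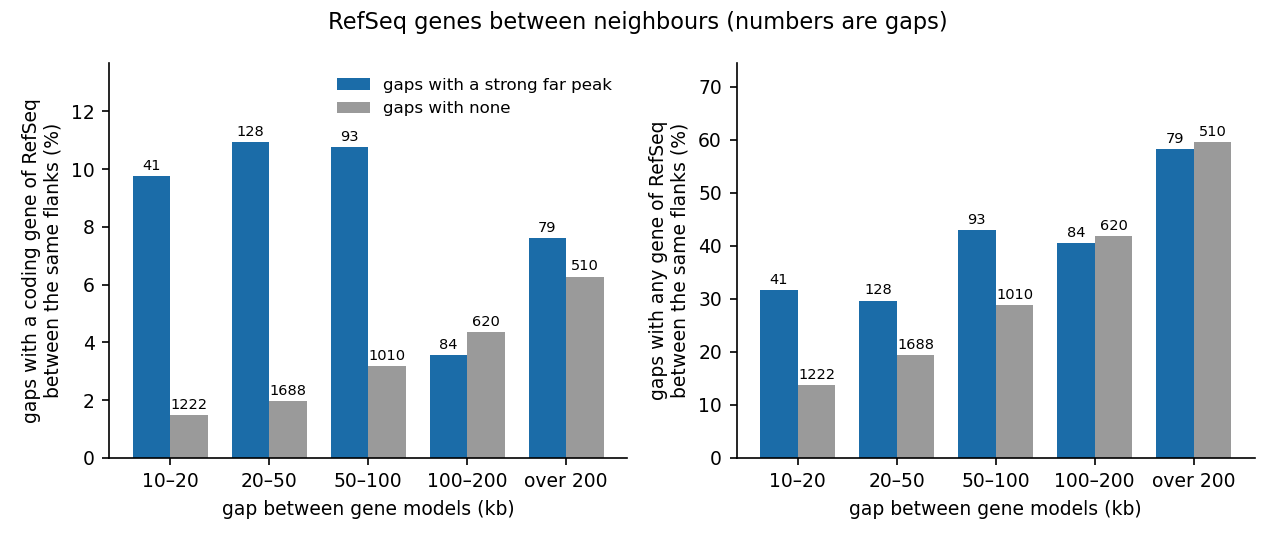
Share of gaps between neighbouring gene models (%) in which RefSeq's annotation of another dunnart assembly has a coding gene (left) or any gene (right) that is not among the symbols used here, for gaps with and without a strong far peak, by gap length (kb). Numbers over the bars are gaps; the coding share was higher with a strong far peak in the 3 classes under 100 kb, lower between 100 and 200 kb, and 7.59% against 6.27% over 200 kb. The share with any gene was lower with a strong far peak in both classes over 100 kb.

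Genes of facial development were counted as having a strong far peak where they were its nearest gene or its host. Of the gene models with a symbol, 1467 of 13810 (10.6%) had one. Among 53 annotated transcription factors of the neural crest and the mesenchyme of the face, 11 had one (20.8%), each with a marked start. TWIST1 had a region 4.24 kb downstream of its start (scaffold00009:61057991-61062504), with H3K4me3 of 35.9 and 43.7 and H3K27ac of 59.2 and 60.0. The H3K27ac value was the higher in both pools, and the annotated start of TWIST1 had an H3K4me3 peak of 66.4. NR2F2, a nuclear receptor of mesenchyme, had a region 4.49 kb into the gene, with H3K4me3 of 56.1 and 54.2, against 4.78 at its annotated start. TFAP2A, a factor of neural crest and epidermis, had one at 4.85 kb, with 35.3 and 32.1.

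Of craniofacial signaling genes 4 of 41 had a region, among them PTCH1, the hedgehog receptor, with 68.9 and 102 in pools 1 and 2 at 6.20 kb into the gene and 18.9 at its start. Muscle genes had 3 of 28. The strongest lay 9.59 kb upstream of SIX4, a homeodomain factor of early muscle, with H3K4me3 of 40.3 and 56.3 in pools 1 and 2, and its start was also marked, at 68.6. TNNI2, the fast skeletal troponin I with 4657, 3445 and 4960 TPM, had a region 24.1 kb downstream of its start, with H3K4me3 of 37.6 and 49.3. Of cartilage and bone genes 2 of 26 had one, RUNX3, with 30.2 and 52.5 in pools 1 and 2 at 3.10 kb upstream of its start, and RUNX1, with 24.3 and 24.8 at 180.3 kb into the gene. Both are factors of the RUNX family. Epidermal genes had 2 of 32, KLF5 and HOPX, a homeodomain protein with 36.7 and 47.3 at its stronger region, 23.3 kb into the gene. Neural genes had 3 of 37, the strongest in BDNF, a neurotrophin, with 34.7 and 37.0 in pools 1 and 2 at 29.0 kb into the gene. Of chromatin modifiers 2 of 26 had one, with TAF3, the TFIID subunit that reads H3K4me3, at 75.8 and 89.6 in pools 1 and 2.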

How the data were processed

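ChIP reads were aligned by the authors with Bowtie2 (2.3.5.1) to the study's own dunnart assembly, and peaks were called for each pool with MACS2 (2.1.1) against the input of that pool. For every peak the deposited lists give the ratio of ChIP to input as a fold enrichment, with its p-value and its q-value, both as −log10. A display score, also deposited, was not used. The lists end at p of 0.01, so q under 0.05 was set again. They hold no read totals, so the depth behind a peak is unknown. The authors made the deposited counts per gene with HISAT2 (2.21) and featureCounts (Subread 2.0.1) over Tasmanian devil gene models placed with Liftoff, and 11 models broken over lines have no usable counts.

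Counts were divided by summed exon length and scaled to TPM. A TSS was the outermost exon end of a model on its strand. A peak was reproducible where the pools' peaks shared 50% of either length. H3K27ac at a region was the highest peak sharing 1 base. The table's RNA columns could not be matched to single RNA samples and are given by column name. Of 14169 symbols 12981 were found once in RefSeq's annotation (ASM4859323v1), which was used only for names and order of genes. Python (3.11.15), pandas (2.3.3), numpy (2.4.6) and scipy (1.17.1) were used, with edgeR (4.0.16) for TMM factors only. Overlap, distance and TPM were tested on simulated data.

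The members and gene lists were chosen with earlier results of these data known. Named regions were the 10 strongest outside and inside, the 5 of each kind with the highest TPM among genes with a symbol and an unmarked start, members among the strongest 3 of each list, those just inside and outside each threshold, and the genes with most regions. Regions named for H3K27ac or for the order of genes in RefSeq were chosen after their values were seen. Alternatives varied the rule's thresholds, the definition of a start and of expression, and the pools and libraries used. The lists of HOX genes are not reported here.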

Additional observations from a re-analysis of the deposited data

How the results depend on the processing

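No paired analysis was possible because no test was run between groups; both pools enter each region. With a minimum fold enrichment of 30 there were 1182 regions, with 52.7% outside gene bodies, 75.1% with an expressed nearest gene, 35.9% with an unmarked nearest start and a median distance of 20.7 kb; with 15, 68.7% had an expressed nearest gene, 29.0% an unmarked start, at 22.0 kb. Counting the 5′ edge of every exon as a start left 1161 regions, 89.2% outside, at a median of 15.1 kb, since most inside regions lay near an exon edge. With only gene models that have a symbol, 41.5% were outside, 79.9% had an expressed nearest gene, 22.4% an unmarked start, at 36.8 kb. A distance over 1 kb gave 28.6% unmarked starts at 17.3 kb, and over 10 kb gave 69.0% expressed genes at 34.0 kb. The share outside was 59.2% where a whole peak had to lie within a gene. H3K27ac covered 95.1% of regions at 50% of both lengths. The nearest gene was expressed at 74.5% by mean TPM over 1 and at 41.1% by over 10 TPM. Starts were unmarked at 37.6% within 1 kb.

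With pool 1 or pool 2 left out there were between 2058 and 2365 regions, with 56.3 to 56.7% outside, 99.9 to 100% with H3K27ac, 69.5 to 71.3% with an expressed nearest gene, 29.5 to 31.2% unmarked starts and median distances of 21.8 to 22.5 kb. Leaving out a library of RNA gave 71.9 to 73.5% expressed nearest genes, and leaving out pool 1 of H3K27ac left 100% of regions with that mark. Leaving out pool 2 of H3K27ac could only give 100%, since reproducible peaks were pool 1 peaks with a partner in pool 2. The median H3K27ac fold enrichment at strong far peaks minus that at TSS peaks, averaged over the pools, was -5.00, and -5.75 to -4.26 with 1 pool left out. In bands of mean H3K4me3 it was 2.71 (20 to 30), 0.87 (30 to 40), -0.23 (40 to 60) and 0.30 (over 60), so its sign turned in 3 bands; how strength and distance share in it was not tested. The share of inside summits near the 5′ edge of an exon was 36.0% within 250 bp and 72.0% within 1000 bp, and the share of expressed genes with an unmarked start that had a region was 25.6% at a minimum of 30, both chosen after seeing the data. Of 92 alternative values, 57 stayed within the limit used for their kind: 1.5 times for the number of regions, the 95% interval for shares, and the SD between pools for distances and for H3K27ac. Peak depth is unknown, so a start without a peak may lie below what the lists could show.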
